A study of Homo sapiens with 18 samples.

Results

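The mRNA of central carbon enzymes was followed through 43 genes in LNCaP cells. LNCaP is an established cell line grown from a human prostate cancer. The genes were chosen by name from their pathways: 15 of glycolysis, FBP1 of gluconeogenesis, 6 of glycogen metabolism, 6 of the pentose phosphate pathway, 13 of the citrate cycle with cytosolic partners, and PC and ME2, which act on pyruvate and malate. The choice was made with earlier results of these data known, so member shares set beside those of all tested genes are descriptions. All 43 were among the 26443 genes measured. At a level of at least 1 RPKM (reads scaled to gene length and library size) in at least 3 libraries, 42 of them were among the 12900 genes tested. FBP1, fructose-bisphosphatase of gluconeogenesis, was listed at 0 in 15 of 18 libraries and at no more than 0.0487 RPKM in the others, and was not tested.

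The 18 libraries of total RNA fell into 6 groups of 3. Cells carried the pGIPZ control vector (control), an shRNA against HIF1A (shHIF1A), an shRNA against FOXA1 (shFOXA1) or both shRNAs (shFOXA1+shHIF1A, the double knockdown), delivered by lentivirus for 5 days. The HIF1A inhibitor KC7F2 was given at 40 µM for 24 h to control cells (control+KC7F2) and to FOXA1 knockdown cells (shFOXA1+KC7F2). Every group, the controls included, also received 100 µM CoCl2 over the final 24 h, a chemical mimic of hypoxia, so no library shows cells without that mimic. The genotype of all groups is given as WT, and each shRNA is named only by its target. Whether the 3 libraries of a group came from separate cultures is not stated, so the spread behind each p-value is that between these samples and may be technical.

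Glycolysis splits glucose to pyruvate in the cytosol, glycogen enzymes store and release glucose units, the pentose phosphate pathway makes NADPH and ribose phosphate, and the citrate cycle oxidises acetyl-CoA in mitochondria. HIF1A, a factor that cells degrade when oxygen is plentiful, binds short DNA elements with the core ACGTG or GCGTG near many glycolysis genes and raises their transcription in hypoxia. FOXA1 is a forkhead factor that opens chromatin for other factors in luminal prostate cells, and prostate epithelium is known for an unusual citrate metabolism.

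The promoters of the 4 members with the smallest adjusted p when HIF1A knockdown was added to FOXA1 knockdown, ENO2, PFKP, ENO1 and ALDOA, are shown so that the HIF core can be seen beside the values below. Each is the first RefSeq promoter listed for its gene on GRCh38.p14, 250 bases before to 50 after the start, read 5′ to 3′ on the gene's strand, with matches to ACGTG or GCGTG on either strand in capitals (CACGT and CACGC are the same elements on the other strand).
ENO2, chr12:6914330-6914629, plus strand: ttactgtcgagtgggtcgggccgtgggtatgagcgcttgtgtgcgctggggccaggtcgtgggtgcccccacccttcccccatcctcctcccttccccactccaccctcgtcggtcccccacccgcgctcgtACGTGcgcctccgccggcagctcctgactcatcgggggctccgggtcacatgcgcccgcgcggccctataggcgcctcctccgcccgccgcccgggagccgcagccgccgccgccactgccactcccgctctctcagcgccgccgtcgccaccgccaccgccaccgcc
PFKP, chr10:3067720-3068019, plus strand: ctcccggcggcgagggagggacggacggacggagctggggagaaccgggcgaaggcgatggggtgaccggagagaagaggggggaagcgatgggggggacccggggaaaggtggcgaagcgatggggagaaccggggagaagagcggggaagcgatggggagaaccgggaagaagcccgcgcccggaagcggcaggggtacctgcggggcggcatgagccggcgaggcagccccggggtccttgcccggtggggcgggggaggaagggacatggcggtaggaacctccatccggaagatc
ENO1, chr1:8878637-8878936, minus strand: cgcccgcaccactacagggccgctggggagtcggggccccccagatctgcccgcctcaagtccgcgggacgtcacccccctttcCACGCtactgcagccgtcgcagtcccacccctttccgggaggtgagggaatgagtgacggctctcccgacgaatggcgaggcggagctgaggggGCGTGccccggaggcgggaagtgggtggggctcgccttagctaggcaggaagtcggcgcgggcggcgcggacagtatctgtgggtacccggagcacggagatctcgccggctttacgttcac
ALDOA, chr16:30064029-30064328, plus strand: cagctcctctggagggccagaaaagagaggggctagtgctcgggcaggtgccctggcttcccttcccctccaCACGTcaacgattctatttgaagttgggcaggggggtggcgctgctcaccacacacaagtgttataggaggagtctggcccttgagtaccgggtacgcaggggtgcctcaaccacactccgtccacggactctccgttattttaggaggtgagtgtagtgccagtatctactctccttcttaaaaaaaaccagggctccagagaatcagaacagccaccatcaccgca
The ENO2 and ALDOA windows hold 1 match each, the ENO1 window 2 matches and the PFKP window none. Of the other windows, ALDOA has 2 more with 2 and 1 matches, and PFKP has 3 more with 3, 0 and 1 matches.

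RefSeq listed 68 such windows for 42 of the members, and OGDH was not matched. An ACGTG or GCGTG on either strand, with the palindrome CACGTG counted as 2 overlapping matches, was in 39 of the 68 windows (57.4%), against 48.4% of 35116 promoters of the same length. The forkhead letters TGTTTAC or TGTTTGC on either strand were in 4 of 68 (5.88%), against 7.17% of all promoters. Among members that fell when HIF1A knockdown was added to FOXA1 knockdown, 21 of 31 windows held the HIF core (67.7%), against 11 of 23 windows of members that passed in neither direction (47.8%) and 6 of 13 windows of members that rose (46.2%). Counted by member the order differs: at least 1 window held the core in 16 of 20 members that fell, 9 of 16 that passed in neither direction and 5 of 5 that rose. These matches describe letters in a window and not bound sites, and genes with many listed starts weigh more in the window counts.

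Depth, read from the spacing of the lowest values, was 3258000 to 12086000 reads over the libraries, in rounded values. The lowest library had 5172000 reads in shFOXA1, 3258000 in shFOXA1+shHIF1A and 6694000 in shFOXA1+KC7F2, against 8892000 or more in the other 3 groups. The members with the fewest reads in any library were PGM1 (24), PYGL (37) and RPIA (39). Control 1, control+KC7F2 1 and control+KC7F2 3 stood apart with more signal in short than in long genes (0.39, 0.32 and 0.25 on a log2 scale, against -0.16 to 0.05 in the other 15 libraries). Without these 3 libraries, 14 members rose and 5 fell with FOXA1 knockdown, 9 and 15 with HIF1A knockdown, 5 and 21 when HIF1A knockdown was added to FOXA1 knockdown, and 7 and 19 in the double knockdown, and 13 had an interaction below 0. Of all 12900 tested genes, 1002 were higher and 1347 lower with FOXA1 knockdown at this setting, and 3225 and 1735 with HIF1A knockdown. When HIF1A knockdown was added to FOXA1 knockdown they were 3331 and 1875. In the double knockdown they were 2874 and 2145, and 450 genes had an interaction below 0. The counts with all libraries stand in the comparisons below. All 8 luminal markers looked for, among them KLK3, FOLH1, TMPRSS2, KRT8, KRT18 and HOXB13, were at 1 RPKM or more in every group. Of 6 markers of other cells only COL1A1 reached that level, and PTPRC and CD3E, which define leukocytes and T cells, were at or near 0.

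The shRNAs lowered their targets, FOXA1 by 1.47 (adjusted p = 3.44e-06) and HIF1A by 2.49 (adjusted p = 4.97e-07) against control. FOXA1 mRNA was 71.5, 114 and 107 RPKM in control, 35.1, 32.4 and 34.8 in shFOXA1, 70.7, 63.5 and 59.2 in the double knockdown and 41.2, 42.6 and 34 in shFOXA1+KC7F2. HIF1A mRNA was 14, 27.3 and 28 RPKM in control, 3.06, 4.28 and 3.33 in shHIF1A and 4.33, 4.07 and 4.56 in the double knockdown. It was 88.6, 81.7 and 99.5 RPKM in shFOXA1, above every control library, a rise of 2.00 ± 0.23 (adjusted p = 8.36e-06). The double knockdown held more FOXA1 mRNA than shFOXA1 alone, by 0.91 ± 0.16 (adjusted p = 0.000302). What part the higher HIF1A mRNA had in the enzyme changes was not tested.

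A trace of the vector differed between groups. MIR30A, the microRNA gene whose hairpin frames shRNAs in pGIPZ, was 5859 to 7463 RPKM in control, 7572 to 9451 in shFOXA1 and 4051 to 5300.0 in the double knockdown, but 18.5 to 39.8 in shHIF1A. It was named after its values were seen. The labels do not name the vector of the HIF1A shRNA, so HIF1A knockdown and a change of vector cannot be told apart where shHIF1A is compared with control. MIR30A also differed between the double knockdown and shHIF1A (7.44 ± 0.22, adjusted p = 3.45e-12) and in the interaction of both shRNAs (7.13 ± 0.31, adjusted p = 7.85e-10), so the same limit holds there. To a smaller extent MIR30A was also lower in the double knockdown than in shFOXA1 (limma, -0.80 ± 0.22, adjusted p = 0.00963). Whether cells with 1 shRNA received a second vector is not stated, so the limit extends to that comparison.

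In control cells the levels per length spanned GAPDH at 994 ± 54.7 RPKM (mean ± SD, n = 3) to PYGL at 3.01 ± 0.262 RPKM. GAPDH was followed by the glycolysis enzymes ALDOA (493 ± 56.5 RPKM), ENO1 (472 ± 30.2) and PKM (406 ± 44.4). All GAPDH libraries lay above those of ALDOA, ALDOA and ENO1 overlapped, and the highest PKM library (437 RPKM) lay just under the lowest of ENO1 (437.5 RPKM). TALDO1, PGK1 and TPI1 came next at 213 to 252 RPKM with overlapping libraries. The summed RPKM of the 15 glycolysis genes was 2911 to 3377 in control, that of the 13 citrate cycle genes 714.1 to 904.7, and that of the 6 glycogen genes 109 to 128.

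**Figure D1:**
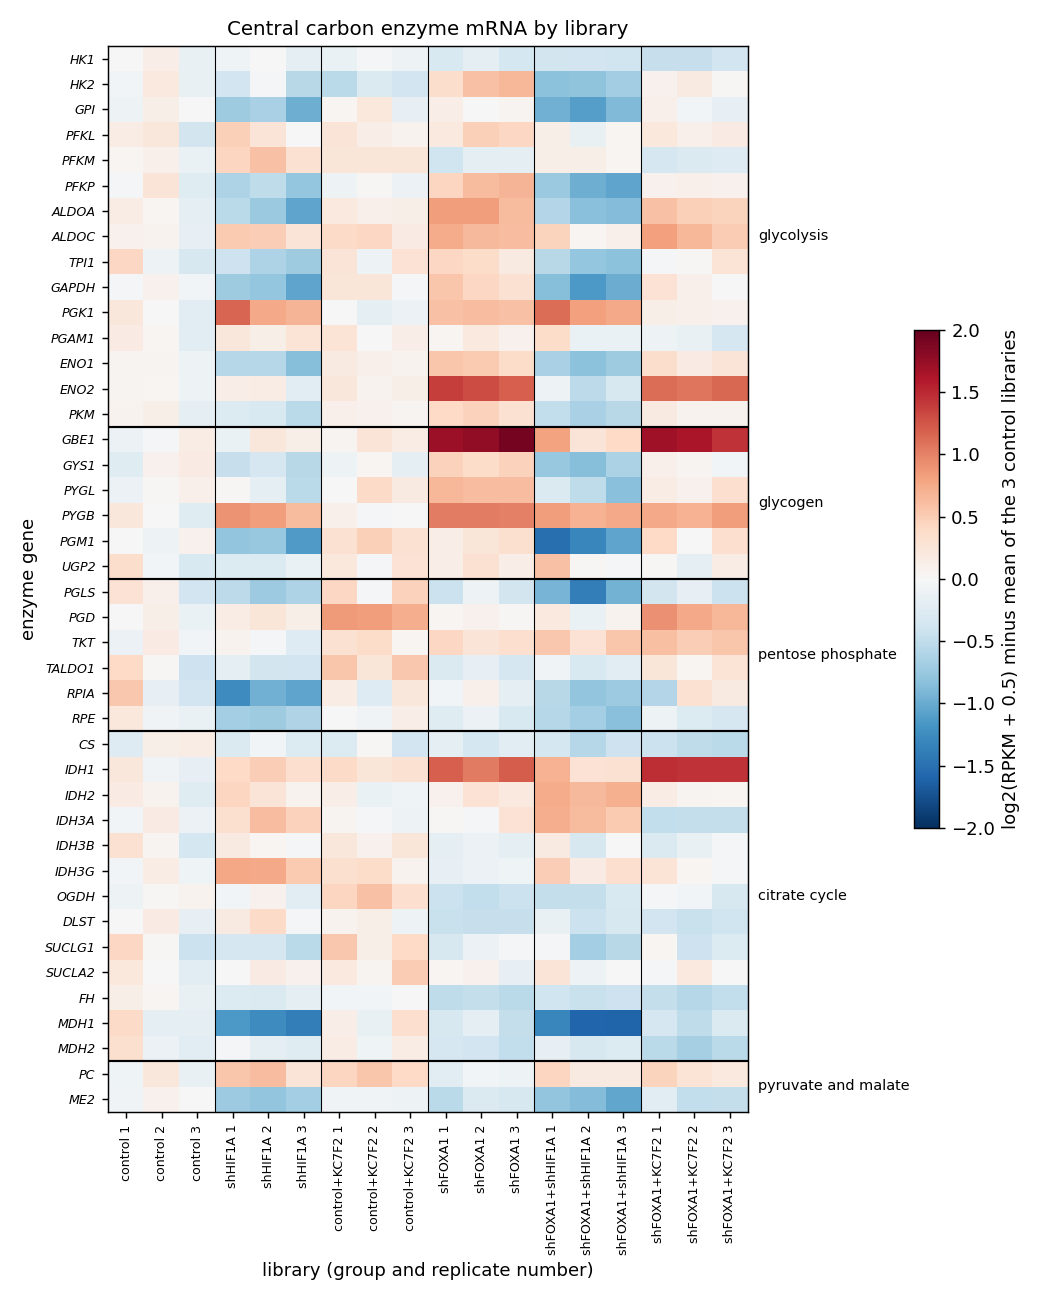
Heat map of the 42 tested enzyme genes (rows, by pathway) in 18 libraries (columns, by group and replicate number); colour gives log2(RPKM + 0.5) minus the mean of the 3 control libraries, from -2 (blue) to 2 (red). GBE1, ENO2 and IDH1 are red in all shFOXA1 and shFOXA1+KC7F2 libraries, and many glycolysis rows turn from red in shFOXA1 to blue in shFOXA1+shHIF1A.

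FOXA1 knockdown against control asked which enzymes change when FOXA1 is lowered under the hypoxia mimic. The words rose and fell are kept for an adjusted p under 0.05 (limma, Benjamini-Hochberg over the 12900 genes). Changes are given in log2 units with their SE, computed on log2(RPKM + 0.5), where a low gene's change comes out too small. Of the 42 members 15 rose and 7 fell, whereas 9.52% of all tested genes rose and 14.6% fell, and the median change was 0.10 for members against -0.089 for all tested genes. Glycolysis held 9 of the rises (HK2, PFKP, ALDOA, ALDOC, GAPDH, PGK1, ENO1, ENO2 and PKM) and glycogen metabolism 4 (GBE1, GYS1, PYGL and PYGB), joined by TKT and IDH1. The falls were HK1 and PFKM of glycolysis, OGDH, DLST, FH and MDH2 of the citrate cycle, and ME2. In bulk RNA, a smaller share of cells holding an mRNA and less of that mRNA per cell cannot be told apart as sources of a lower level. The luminal marker sum was 1610 to 2060 RPKM in control and 1340 to 1480 in shFOXA1, without overlap, and its part in the enzyme values was not tested.

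With quantile normalisation 18 members rose and 4 fell, beside 1534 and 1586 of all 12900 tested genes. With only the 2 groups compared fitted, those counts over all tested genes were 762 and 934. When only the 2 groups compared were fitted, 8 members rose and 3 fell, and HK2, PFKP, ENO1, GYS1, ME2, TKT, PKM, HK1, MDH2, GAPDH and PFKM no longer passed (adjusted p = 0.0517 to 0.179). PFKM lost its call without control 1, control 2 or any 1 shFOXA1 library (adjusted p = 0.0524 to 0.182), TKT without control 1, control 3 or any 1 shFOXA1 library (0.0602 to 0.142), HK1 without control 2, shFOXA1 1 or shFOXA1 3 (0.0579 to 0.0961), GAPDH without control 1, shFOXA1 1 or shFOXA1 2 (0.0561 to 0.105), MDH2 without control 1, shFOXA1 2 or shFOXA1 3 (0.0543 to 0.113), and ME2 without shFOXA1 1 (0.0542). Without control 1 and control+KC7F2 1 and 3 together, PFKM, TKT, HK1, GAPDH and MDH2 did not pass (0.054 to 0.125). Without control 1 alone, TPI1 passed as higher (0.53, adjusted p = 0.0163) and CS as lower (-0.38, adjusted p = 0.0338).

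HIF1A knockdown against control asked the same of HIF1A, and lowered PFKP, ALDOA, GAPDH, ENO1 and PKM, which had risen with FOXA1 knockdown against the same control libraries. Of the 42 members 8 rose and 15 fell, whereas 25.9% of all tested genes rose and 16.1% fell, and the median change was -0.18 for members against 0.071 for all tested genes. In glycolysis 7 fell (GPI, PFKP, ALDOA, TPI1, GAPDH, ENO1 and PKM) and 3 rose (PFKM, ALDOC and PGK1). The other falls were GYS1 and PGM1 of glycogen metabolism, PGLS, RPIA and RPE of the pentose phosphate pathway, FH and MDH1 of the citrate cycle, and ME2. The other rises were PYGB, IDH1, IDH3A, IDH3G and PC. Summed RPKM of the luminal markers moved with this comparison, at 1610 to 2060 in control and 967 to 1150 in shHIF1A, and that of the 6 markers of other cells was 2.17 to 2.79 and 6.56 to 7.62, nearly all COL1A1. Their part in the enzyme values was not tested. The call of FH was lost without control 1, control 2 or shHIF1A 2 (adjusted p = 0.0519 to 0.0632) and with the length and GC trend removed (0.944), that of PKM without shHIF1A 3 (0.0521) or with quantile normalisation (0.396), and with only the 2 groups fitted TPI1, IDH1 and PC (0.0532 to 0.0766) did not pass either. Without control 1, CS passed as lower (-0.34, adjusted p = 0.0326) and the fall of TPI1 was smaller (-0.38 in place of -0.58).

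HIF1A knockdown added to FOXA1 knockdown lowered 20 of the 42 members and raised 5, whereas 13.5% of all tested genes fell and 24% rose. The median change was -0.31 for members against 0.0996 for all tested genes, and -1.04 for the 15 glycolysis genes and -1.18 for the 6 glycogen genes. Under median-ratio scaling the median of all tested genes moved to -0.0088, with 4 members higher and 23 lower. Of all 12900 tested genes, 2234 were higher and 2391 lower with that scaling. In glycolysis 10 of 15 fell (HK2, GPI, PFKP, ALDOA, ALDOC, TPI1, GAPDH, ENO1, ENO2 and PKM), and PFKM alone rose. GBE1, GYS1, PYGL and PGM1 fell among glycogen genes, PGLS, RPIA and RPE among pentose phosphate genes, IDH1 and MDH1 in the citrate cycle, and ME2. The rises besides PFKM were IDH2, IDH3A, IDH3G and PC. The luminal marker sum was 1340 to 1480 RPKM in shFOXA1 and 796 to 893 in the double knockdown. By group mean FOLH1 was higher (60.8 to 66.5 RPKM) and the other luminal markers lower. The sum of the markers of other cells was 1.75 to 2.34 and 3.98 to 4.69, mostly COL1A1 (mean 1.87 and 4.16 RPKM). FOXA1 mRNA was also higher in the double knockdown than in shFOXA1 (limma, 0.91 ± 0.16, adjusted p = 0.000302). Lower HIF1A, a weaker FOXA1 knockdown and a change of vector therefore cannot be told apart here or in the gene values below. The call of RPIA was lost without any 1 of the 6 libraries (adjusted p = 0.0508 to 0.116) and that of PC without shFOXA1 1 or shFOXA1+shHIF1A 1 (0.068 and 0.0837).

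The response to FOXA1 knockdown differed with HIF1A knockdown in 12 members. The interaction, which is the change with the FOXA1 shRNA in HIF1A knockdown cells minus that in cells without the HIF1A shRNA, was below 0 past the threshold for HK2, PFKP, ALDOA, ALDOC, ENO1, ENO2, PKM, GBE1, GYS1, PYGL, PYGB and IDH1, and above 0 for none. Over all tested genes 4.45% had a called interaction below 0 and 3.16% above 0, and the median was -0.17 for members and 0.028 for all tested genes. Within HIF1A knockdown cells, the FOXA1 shRNA raised TKT and IDH2 and lowered HK1, HK2, PFKM, OGDH and DLST, 2 and 5 of 42, whereas 5.27% of all tested genes rose and 9.25% fell. The split was 3 higher and 4 lower under median-ratio scaling and 4 higher and 3 lower under quantile normalisation. All 12900 tested genes split 791 and 1013, and 898 and 1023, at these settings in HIF1A knockdown cells. None of the 9 glycolysis genes and 4 glycogen genes that rose with FOXA1 knockdown in control cells passed as higher there, and HK2 passed as lower. GBE1, at 0.41 there, did pass as higher under 5 other settings, among them median-ratio scaling (adjusted p = 0.0376) and quantile normalisation (0.0295), and without shHIF1A 2 (0.0495) or shFOXA1+shHIF1A 2 (0.0246). All libraries of the double knockdown had more FOXA1 mRNA than those of shFOXA1, and the groups differed in the vector trace, so a smaller FOXA1 effect, a weaker knockdown and a change of vector cannot be told apart.

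The interaction calls of ALDOA and ENO1 were lost without any 1 of shHIF1A 1, shHIF1A 2, shFOXA1 1, shFOXA1 2, shFOXA1+shHIF1A 2 or shFOXA1+shHIF1A 3 (adjusted p = 0.0506 to 0.0855), and that of PKM without any 1 of the first 5 of these (0.0503 to 0.0627). With no filter on low values or only the 4 groups fitted, these 3 did not pass either (0.0648 to 0.0973). Within HIF1A knockdown cells none of the 5 falls passed with only the 2 groups fitted (adjusted p = 0.0505 to 0.107) or without shHIF1A 2 (0.0657 to 0.154), and PFKM alone of them passed without shFOXA1+shHIF1A 2. Some were also lost without shHIF1A 1 (HK1, HK2 and OGDH, 0.0569 to 0.0877), shFOXA1+shHIF1A 1 (HK2 and OGDH, 0.0709 and 0.0839) or shFOXA1+shHIF1A 3 (HK1 and PFKM, 0.076 and 0.0567). The rise of IDH2 did not pass without shHIF1A 2 (0.0512) or shHIF1A 3 (0.074).

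**Figure D2:**
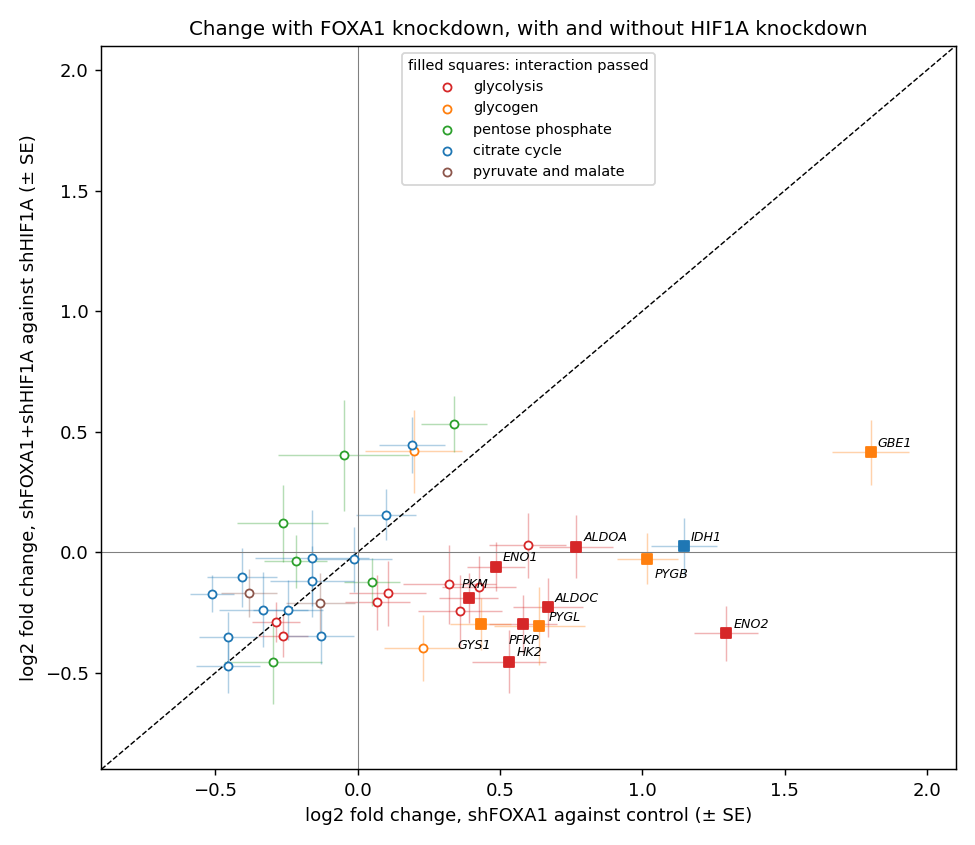
Log2 fold change with the FOXA1 shRNA in control cells (horizontal axis) and in HIF1A knockdown cells (vertical axis) for the 42 tested enzymes, coloured by pathway, with bars of 1 SE and a dashed line of equal change; the axes share no library. The 12 filled and named squares, all below the line, had an interaction past the threshold, from -0.55 (ENO1) to -1.63 (ENO2).

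With FOXA1 knockdown, HK2 and PFKP rose and their isoenzymes HK1 and PFKM fell, at the first regulated steps of glycolysis. The falls were small and lost their calls under several settings, and the differences between isoenzymes were not tested. HK2, the hexokinase isoenzyme induced in many tumours (chromosome 2, 74833981 to 74893359, hg38), was 8.91, 10.7 and 8.34 RPKM in control, 11.9, 14.1 and 15 in shFOXA1 and 5.02, 5.07 and 5.5 in the double knockdown. The shFOXA1 libraries lay above every control library and the double knockdown below all of them. HK2 rose by 0.53 ± 0.13 with FOXA1 knockdown (adjusted p = 0.00687), fell by 1.31 ± 0.13 (adjusted p = 9.94e-07) when HIF1A knockdown was added, and had an interaction of -0.99 ± 0.18 (adjusted p = 0.00298). In shHIF1A it was 7.01, 9.01 and 6.15 RPKM, overlapping control, with a change of -0.32 ± 0.13 (adjusted p = 0.0573). It was 6.21, 7.49 and 6.98 RPKM in control+KC7F2 and 9.9, 10.6 and 9.44 in shFOXA1+KC7F2.

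HK1, the constitutive hexokinase, went the other way at 48.8 ± 4.75 RPKM in control and 39.8 ± 2.21 in shFOXA1, a fall of 0.29 (adjusted p = 0.0193). With quantile normalisation the HK1 change was -0.13 and did not pass (limma, adjusted p = 0.282). The HK2 share of summed HK1 and HK2 RPKM was 15.4 to 16.7% in control, 23.3 to 28.4% in shFOXA1 and 11.7 to 13% in the double knockdown. The shares are descriptions over 3 libraries a group, without a test.

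Phosphofructokinase, which commits sugar to glycolysis, is built from the liver, muscle and platelet subunits PFKL, PFKM and PFKP. PFKP (chromosome 10, 3066333 to 3137712) was 31.6, 38.5 and 26.8 RPKM in control, 20.6, 22.4 and 18.5 in shHIF1A, 43.4, 49.7 and 51.4 in shFOXA1 and 18.8, 16 and 15.1 in the double knockdown. With KC7F2 it was 29.7, 32.5 and 29.4 RPKM in control cells and 34, 34.2 and 34 in FOXA1 knockdown cells. Neither the shHIF1A nor the shFOXA1 libraries overlapped control, one lying below and the other above. PFKP rose by 0.58 ± 0.12 with FOXA1 knockdown (adjusted p = 0.00211), fell by 0.63 ± 0.12 with HIF1A knockdown (adjusted p = 0.000546) and, on top of FOXA1 knockdown, fell by 1.51 ± 0.12 (adjusted p = 9.9e-08). Its interaction was -0.88 ± 0.17 (adjusted p = 0.00424).

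PFKM moved in the opposite sense in both knockdowns, though its fall with FOXA1 knockdown did not pass with quantile normalisation (limma, -0.13, adjusted p = 0.289). Its level was 32.5 ± 2.68 RPKM in control, 44.3 ± 4.32 in shHIF1A and 27 ± 2.23 in shFOXA1, and it rose by 0.44 ± 0.089 with HIF1A knockdown (adjusted p = 0.000909) and fell by 0.26 ± 0.089 with FOXA1 knockdown (adjusted p = 0.0429). PFKL did not pass in either, at 0.36 ± 0.15 with FOXA1 knockdown and 0.25 ± 0.15 with HIF1A knockdown. The PFKM share of the 3 subunits' summed RPKM was 21.8 to 26.2% in control, 26.2 to 30.7% in shHIF1A and 15.8 to 16.1% in shFOXA1. The PFKP share was 21.7 to 24.1%, 12.4 to 14.1% and 27.7 to 29% in the same groups.

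Glucose-6-phosphate isomerase, GPI (chromosome 19, 34359480 to 34402413), which feeds phosphofructokinase, was lower in all 6 libraries with the HIF1A shRNA than in the 12 others. Its level was 117, 137 and 126 RPKM in control, 139, 128 and 131 in shFOXA1, 129.8, 147 and 113 in control+KC7F2 and 135, 121 and 113 in shFOXA1+KC7F2. In shHIF1A it was 76.8, 80.7 and 64 RPKM and in the double knockdown 64.5, 58.5 and 67.9. It fell by 0.78 ± 0.12 with HIF1A knockdown (adjusted p = 5.52e-05) and fell by 1.05 ± 0.12 (adjusted p = 2.79e-06) within FOXA1 knockdown, and the interaction (-0.28 ± 0.16, adjusted p = 0.357) did not pass.

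**Figure D3:**
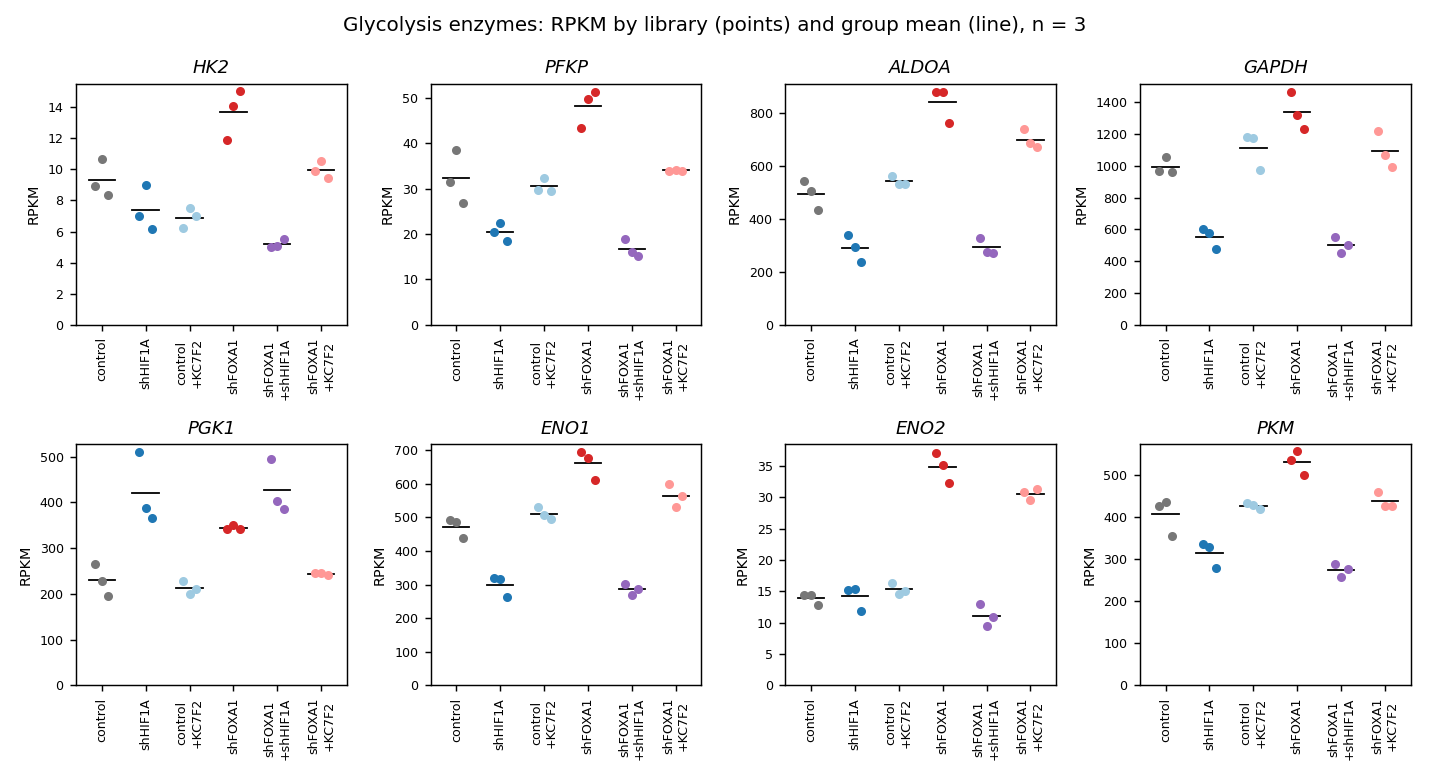
RPKM of 8 glycolysis enzymes in each library (points) with the group mean (line, n = 3 a group); each panel has its own axis from 0. HK2, PFKP, ALDOA, GAPDH, ENO1, ENO2 and PKM are highest in shFOXA1 and lowest in shFOXA1+shHIF1A or shHIF1A, and PGK1 is highest in the groups with the HIF1A shRNA.

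Aldolase cleaves fructose bisphosphate. ALDOA (chromosome 16, 30064164 to 30070457), the main form here, was 543, 506 and 432 RPKM in control, 337, 292 and 237 in shHIF1A, 877, 877 and 760.5 in shFOXA1 and 329, 276 and 269.6 in the double knockdown. The double knockdown libraries overlapped those of shHIF1A and lay below every control library. It rose by 0.77 ± 0.13 with FOXA1 knockdown (adjusted p = 0.000392), fell by 0.78 ± 0.13 with HIF1A knockdown (adjusted p = 0.000172) and, within FOXA1 knockdown, fell by 1.53 ± 0.13 (adjusted p = 1.96e-07). With KC7F2 ALDOA was 560.1, 529 and 532 RPKM in control cells and 738, 684 and 669.8 in FOXA1 knockdown cells. Of the ALDOA exon bases 42.3% are shared on the same strand with other annotated genes, so its reads may include theirs.

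ALDOC, the aldolase of brain, rose in both single knockdowns. Its level was 51.2 ± 4.73 RPKM in control, 81.5 ± 3.81 in shFOXA1, 68.9 ± 6.96 in shHIF1A and 59 ± 9.38 in the double knockdown. It rose by 0.67 ± 0.12 with FOXA1 knockdown (adjusted p = 0.000758) and rose by 0.42 ± 0.12 with HIF1A knockdown (adjusted p = 0.0113), and it fell by 0.47 ± 0.12 (adjusted p = 0.00645) when HIF1A knockdown was added to FOXA1 knockdown. The ALDOC share of both aldolases was 9.07 to 9.6% in control, 8.41 to 9.33% in shFOXA1, 17.9 to 20.4% in shHIF1A and 16 to 17.5% in the double knockdown. It was thus higher in every library with the HIF1A shRNA than in any without it, the KC7F2 groups included (9.68 to 11.4%).

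GAPDH (chromosome 12, 6533927 to 6538374), which makes the NADH of glycolysis, was 965, 1057 and 960.3 RPKM in control, 605, 579.8 and 478 in shHIF1A, 1466, 1317 and 1230.0 in shFOXA1 and 549.8, 450.0 and 500.1 in the double knockdown. It was 1178, 1176 and 972 RPKM in control+KC7F2 and 1216, 1070.0 and 992 in shFOXA1+KC7F2. GAPDH rose by 0.43 ± 0.13 with FOXA1 knockdown (adjusted p = 0.0247), fell by 0.85 ± 0.13 with HIF1A knockdown (adjusted p = 7.21e-05) and, within FOXA1 knockdown, fell by 1.42 ± 0.13 (adjusted p = 3.85e-07). The gene is often used as a reference of constant level, and here its mean ranged from 500.0 ± 49.9 RPKM in the double knockdown to 1338 ± 119.6 in shFOXA1. Its interaction, -0.57 ± 0.18 (adjusted p = 0.0717), did not pass, and 62 named pseudogenes may share its reads. Triose-phosphate isomerase, TPI1, at 213 ± 57 RPKM in control, fell by 0.58 ± 0.16 with HIF1A knockdown (adjusted p = 0.00927) and fell by 1.04 ± 0.16 (adjusted p = 0.000117) within FOXA1 knockdown. ENO1 and TPI1 have 4 named pseudogenes each, PKM 5, RPE 6 and PGAM1 13.

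PGK1 (chromosome X, 77910739 to 78129296), which makes the first ATP of glycolysis, is described in every library because it departed from its neighbours, a choice made after its values were seen. It was 266, 227 and 195 RPKM in control, 511, 387 and 366 in shHIF1A, 342, 351 and 341 in shFOXA1 and 495, 403 and 385 in the double knockdown. Under KC7F2 it was 227, 199 and 210.2 RPKM in control cells and 246, 245 and 241 in FOXA1 knockdown cells. Both shHIF1A and shFOXA1 lay above control with no overlap, and PGK1 rose by 0.87 ± 0.14 with HIF1A knockdown (adjusted p = 8.98e-05) and rose by 0.60 ± 0.14 with FOXA1 knockdown (adjusted p = 0.00415). Within FOXA1 knockdown its change with HIF1A knockdown was 0.30 ± 0.14 (adjusted p = 0.0927). Its promoter window holds 4 HIF core matches. A PGK1 promoter is a common part of lentiviral vectors, and whether vector RNA, seen in the MIR30A levels above to differ between groups, had a part in the PGK1 values was not tested.

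Enolase makes phosphoenolpyruvate. ENO1 (chromosome 1, 8861000 to 8879250), the ubiquitous form, was 492, 487 and 438 RPKM in control, 318, 316 and 262 in shHIF1A, 696, 678 and 611 in shFOXA1 and 301, 268 and 288 in the double knockdown. In the presence of KC7F2 it was 532, 508 and 494 RPKM in control cells and 599, 531 and 565 in FOXA1 knockdown cells. ENO1 rose by 0.49 ± 0.10 with FOXA1 knockdown (adjusted p = 0.00243), fell by 0.66 ± 0.10 with HIF1A knockdown (adjusted p = 8.43e-05) and, within FOXA1 knockdown, fell by 1.21 ± 0.10 (adjusted p = 1.86e-07).

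ENO2 (chromosome 12, 6913745 to 6923698), the neuronal enolase, had the largest change with FOXA1 knockdown of the 15 glycolysis genes. It was 14.5, 14.4 and 12.9 RPKM in control, 37.1, 35.1 and 32.3 in shFOXA1 and 12.9, 9.55 and 11 in the double knockdown. In shHIF1A it was 15.2, 15.4 and 11.9 RPKM, overlapping control. With KC7F2 it was 16.4, 14.6 and 15.1 RPKM in control cells and 30.9, 29.6 and 31.4 in FOXA1 knockdown cells, so the higher level with the FOXA1 shRNA was also seen under the inhibitor. ENO2 rose by 1.29 ± 0.11 with FOXA1 knockdown (adjusted p = 3.41e-07), fell by 1.61 ± 0.11 (adjusted p = 2.49e-08) on addition of HIF1A knockdown, and changed by 0.021 ± 0.11 (adjusted p = 0.903) with HIF1A knockdown alone. Its interaction (-1.63 ± 0.16, adjusted p = 9.59e-06) was the largest in size among the 42 members. The ENO2 share of both enolases was 2.86% in every control library, 4.93 to 5.06% in shFOXA1 and 4.36 to 4.65% in shHIF1A, where ENO1 was lower.

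Pyruvate kinase, PKM (chromosome 15, 72199029 to 72231822), which ends glycolysis, was 427, 437 and 356 RPKM in control, 336, 329 and 279 in shHIF1A, 535, 558 and 500.1 in shFOXA1 and 289, 259 and 276 in the double knockdown. It was 433, 429 and 419.9 RPKM in control+KC7F2 and 460.0, 427 and 426 in shFOXA1+KC7F2. All shFOXA1 libraries lay above and all double knockdown libraries below control, and PKM rose by 0.39 ± 0.10 with FOXA1 knockdown (adjusted p = 0.0115) and, within FOXA1 knockdown, fell by 0.95 ± 0.10 (adjusted p = 2.77e-06). With the trend on gene length and GC content removed from each library, the rise with FOXA1 knockdown did not pass (adjusted p = 0.112). The values do not separate the M1 and M2 splice forms. PGAM1, the mutase before enolase, passed in none of the 10 contrasts, with changes of 0.11 ± 0.13 for FOXA1 knockdown and 0.20 ± 0.13 for HIF1A knockdown.

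**Figure D4:**
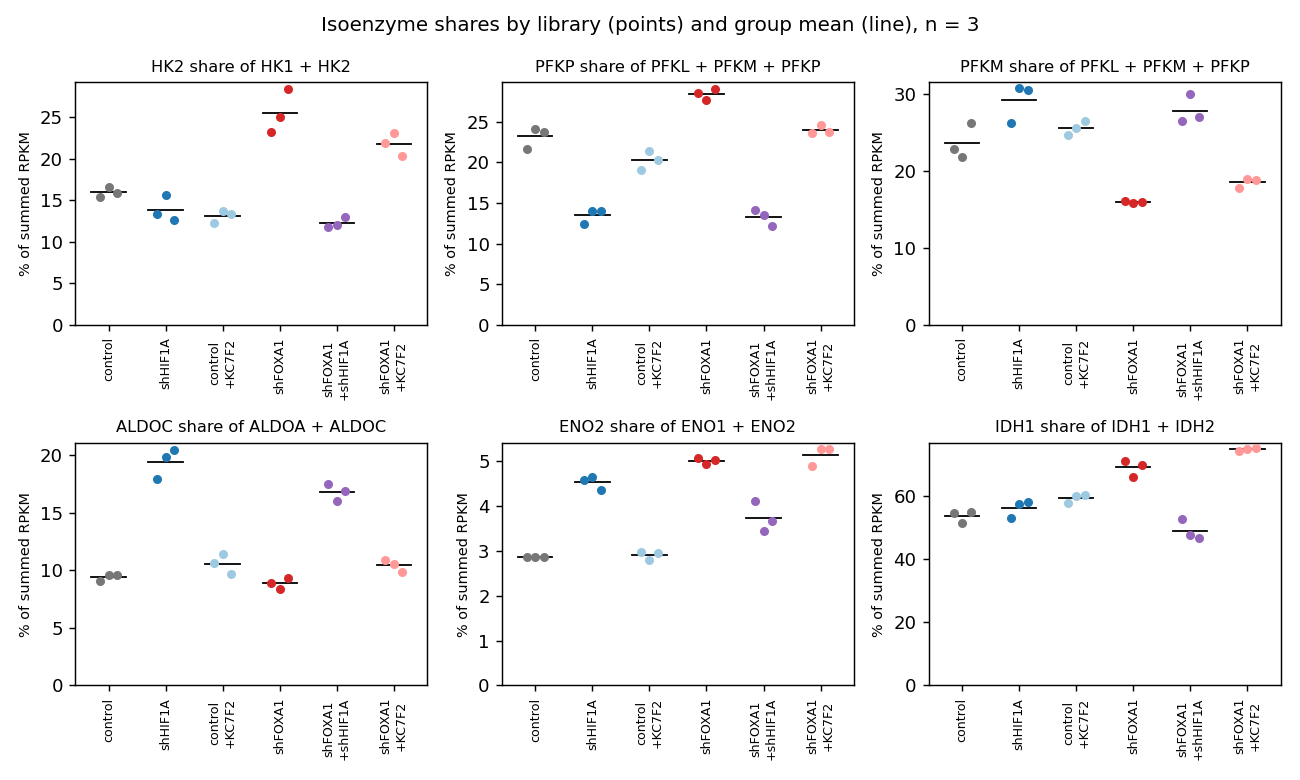
Share of 1 isoenzyme in the summed RPKM of its family, in percent, by library (points) with the group mean (line, n = 3); each panel has its own axis from 0. HK2, PFKP, ENO2 and IDH1 take larger shares in shFOXA1 than in control, and ALDOC reaches 16 to 20.4% in the groups with the HIF1A shRNA.

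Of the 6 glycogen members, GBE1 and GYS1 of the storing side and PYGL and PYGB of the releasing side rose with FOXA1 knockdown, 4 of 6 against 9.52% of all tested genes. Of the 9 other tested glycogen genes 1 rose and none fell. GBE1, the branching enzyme (chromosome 3, 81489699 to 81762161), was 7.81, 8.41 and 9.48 RPKM in control, 29.1, 30.5 and 33.6 in shFOXA1 and 15.2, 10.3 and 11.4 in the double knockdown. It was 7.72, 10.1 and 9.25 RPKM in shHIF1A, 8.92, 10.3 and 9.49 in control+KC7F2 and 28.7, 27.7 and 24.2 in shFOXA1+KC7F2. The shFOXA1 and shFOXA1+KC7F2 libraries stood above all others, and the double knockdown lay between them and control. GBE1 rose by 1.80 ± 0.14 with FOXA1 knockdown (adjusted p = 5.21e-08), the largest change of any member in that comparison, and fell by 1.32 ± 0.14 (adjusted p = 1.31e-06) when HIF1A knockdown was added, with an interaction of -1.39 ± 0.19 (adjusted p = 0.000209). HIF1A knockdown alone changed it by 0.067 ± 0.14 (adjusted p = 0.727).

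GYS1, the glycogen synthase of muscle and most tissues (chromosome 19, 48968125 to 48993310), was 19.2, 24 and 25.4 RPKM in control, 16.3, 17.9 and 15.3 in shHIF1A, 31.6, 29.4 and 31.3 in shFOXA1 and 13.2, 12.3 and 14.5 in the double knockdown. Under KC7F2 it was 21.1, 23.4 and 19.6 RPKM in control cells and 24.4, 23.6 and 21.7 in FOXA1 knockdown cells. There was no overlap between shFOXA1, control and shHIF1A, from highest to lowest. GYS1 rose by 0.43 ± 0.11 with FOXA1 knockdown (adjusted p = 0.00754), fell by 0.45 ± 0.11 with HIF1A knockdown (adjusted p = 0.00308) and, within FOXA1 knockdown, fell by 1.18 ± 0.11 (adjusted p = 3.85e-07).

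Both glycogen phosphorylases tested, which release glucose units, rose with FOXA1 knockdown. PYGB (chromosome 20, 25248069 to 25298014), the brain form and the main one here, was 72.7, 61.8 and 52.4 RPKM in control, 116, 111 and 95.7 in shHIF1A, 127, 126 and 124 in shFOXA1 and 110.5, 101 and 104 in the double knockdown. In the presence of KC7F2 it was 66, 60.2 and 61.6 RPKM in control cells and 105, 101 and 110.0 in FOXA1 knockdown cells. It rose by 1.02 ± 0.11 with FOXA1 knockdown (adjusted p = 2.71e-06) and rose by 0.79 ± 0.11 with HIF1A knockdown (adjusted p = 2.28e-05), and the double knockdown overlapped shHIF1A, and the interaction was -1.04 ± 0.15 (adjusted p = 0.000333). PYGL, the liver form, was far lower at 3.01 ± 0.262 RPKM in control and 4.95 ± 0.101 in shFOXA1, and it rose by 0.64 ± 0.16 with FOXA1 knockdown (adjusted p = 0.00778) and fell by 1.18 ± 0.16 (adjusted p = 2.49e-05) when HIF1A knockdown was added. Without shFOXA1+shHIF1A 3 the PYGL difference between double knockdown and control did not pass (adjusted p = 0.0685).

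PGM1, phosphoglucomutase, links glycogen to glycolysis (chromosome 1, 63593276 to 63660245). It was 5.93, 5.46 and 6.27 RPKM in control, 6.47, 7.03 and 7.49 in shFOXA1, 7.38, 8.42 and 7.38 in control+KC7F2 and 7.94, 5.92 and 7.55 in shFOXA1+KC7F2. In shHIF1A it was 3.19, 3.26 and 2.41 RPKM and in the double knockdown 1.74, 2.07 and 2.58, below every library of the other 4 groups. It fell by 0.89 ± 0.14 with HIF1A knockdown (adjusted p = 8.1e-05) and fell by 1.52 ± 0.14 (adjusted p = 3.64e-07) within FOXA1 knockdown, and its interaction was -0.63 ± 0.20 (adjusted p = 0.0624). UGP2, which makes the sugar donor of glycogen synthesis, passed in none of the 10 contrasts, with 0.20 ± 0.17 for FOXA1 knockdown and -0.23 ± 0.17 for HIF1A knockdown.

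**Figure D5:**
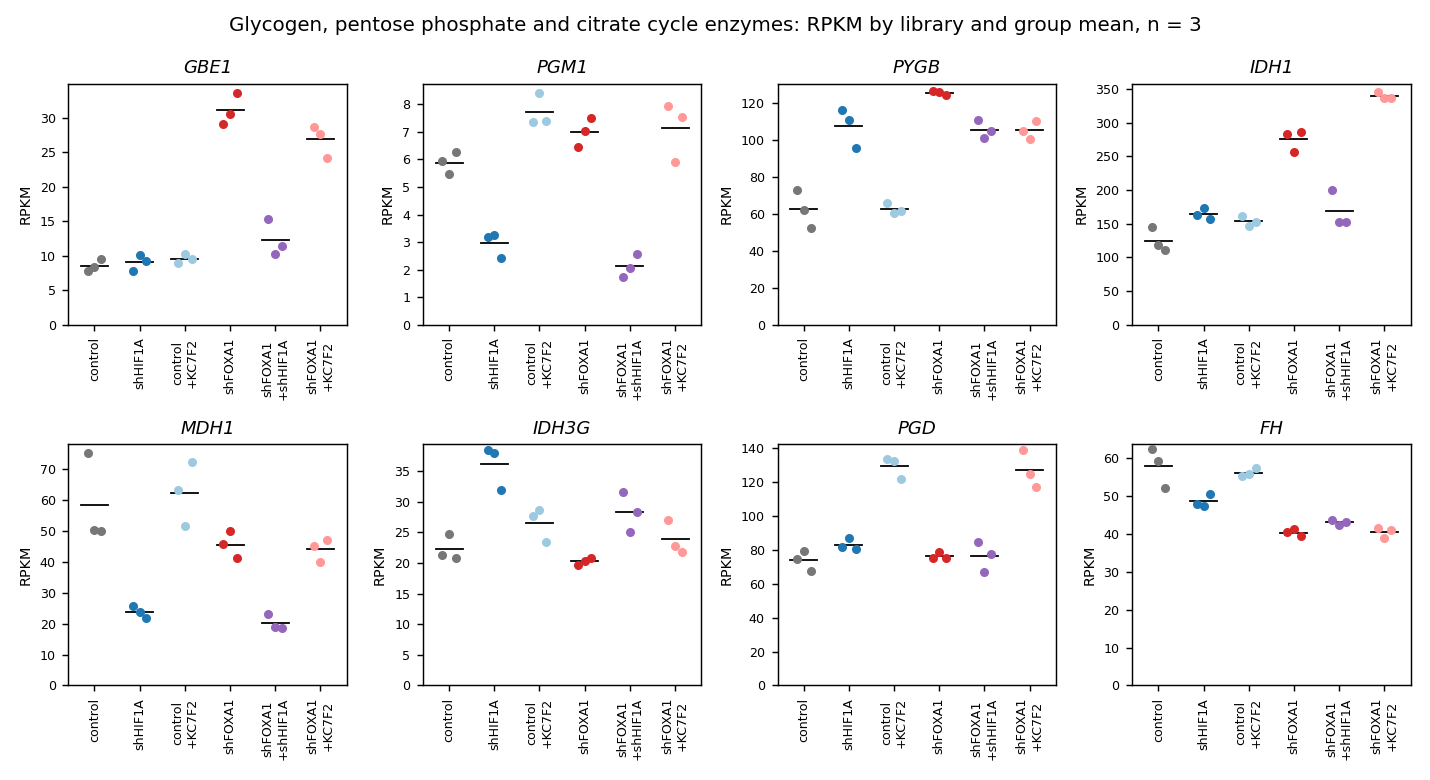
RPKM of GBE1, PGM1, PYGB, IDH1, MDH1, IDH3G, PGD and FH in each library (points) with the group mean (line, n = 3 a group); each panel has its own axis from 0. PGM1 and MDH1 are lowest in the groups with the HIF1A shRNA, and PGD is highest with KC7F2 (117 to 138 RPKM).

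In the pentose phosphate pathway, 3 of the 6 members fell with HIF1A knockdown and none rose, against 16.1% and 25.9% of all tested genes. Of the 7 other tested genes of the pathway 2 rose and none fell. RPIA, ribose-5-phosphate isomerase (chromosome 2, 88691644 to 88750935), was 14.6, 8.71 and 7.45 RPKM in control, 3.8, 4.82 and 4.48 in shHIF1A, 9.42, 10.6 and 8.54 in shFOXA1 and 6.53, 5.47 and 5.76 in the double knockdown. It was 11, 8.19 and 11.6 RPKM in control+KC7F2 and 6.4, 12.2 and 11.2 in shFOXA1+KC7F2. RPIA fell by 1.09 ± 0.23 with HIF1A knockdown (adjusted p = 0.00123). Control 1, with more short-gene signal, was the highest of all, and the call held without it and control+KC7F2 1 and 3.

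RPE, the epimerase at the same branch (chromosome 2, 210002565 to 210022259), was 9.22, 7.45 and 7.11 RPKM in control, 4.75, 4.62 and 5.02 in shHIF1A, 6.59, 7.26 and 6.3 in shFOXA1 and 5.14, 4.71 and 4.18 in the double knockdown. With KC7F2 it was 7.87, 7.47 and 8.66 RPKM in control cells and 7.31, 6.4 and 6.16 in FOXA1 knockdown cells. All 6 libraries with the HIF1A shRNA lay below all others, and RPE fell by 0.66 ± 0.11 with HIF1A knockdown (adjusted p = 0.000157) and fell by 0.48 ± 0.11 (adjusted p = 0.00256) within FOXA1 knockdown. Of its exon bases 23.8% overlap a gene on the other strand, and whether the counting used strand is not stated.

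PGLS, the lactonase of the oxidative branch (chromosome 19, 17511629 to 17521288), was 54, 47.4 and 34 RPKM in control, 30.7, 26.5 and 28.7 in shHIF1A, 32.7, 41.5 and 34.4 in shFOXA1 and 23.2, 16.7 and 22.8 in the double knockdown. It was 59, 43.4 and 61.1 RPKM in control+KC7F2 and 34.4, 39.6 and 32.8 in shFOXA1+KC7F2. PGLS fell by 0.63 ± 0.17 with HIF1A knockdown (adjusted p = 0.0084) and fell by 0.79 ± 0.17 (adjusted p = 0.00202) within FOXA1 knockdown. TKT, transketolase, was 119.9 ± 12.4 RPKM in control and 151 ± 8.59 in shFOXA1 and rose by 0.34 ± 0.12 with FOXA1 knockdown (adjusted p = 0.0455). It also rose by 0.53 ± 0.12 (adjusted p = 0.00519) under the FOXA1 shRNA in HIF1A knockdown cells. TALDO1, transaldolase, did not pass, with -0.26 ± 0.16 for FOXA1 knockdown and -0.31 ± 0.16 for HIF1A knockdown.

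Of the 13 citrate cycle members, 1 rose and 4 fell with FOXA1 knockdown, against 9.52% and 14.6% of all tested genes. With HIF1A knockdown 3 rose and 2 fell, shares near the 25.9% and 16.1% of all tested genes. IDH1, the cytosolic NADP-linked isocitrate dehydrogenase (chromosome 2, 208236227 to 208266074), was 145, 119 and 111 RPKM in control, 163, 174 and 157 in shHIF1A, 283, 256 and 287 in shFOXA1 and 201, 152 and 153 in the double knockdown. Under KC7F2 it was 161, 147 and 153 RPKM in control cells and 346, 337 and 337 in FOXA1 knockdown cells, the highest of the 6 groups. IDH1 rose by 1.15 ± 0.12 with FOXA1 knockdown (adjusted p = 1.86e-06), rose by 0.41 ± 0.12 with HIF1A knockdown (adjusted p = 0.0105) and, within FOXA1 knockdown, fell by 0.72 ± 0.12 (adjusted p = 0.000156). IDH2, its mitochondrial counterpart, was 107 ± 15.6 RPKM in control and 174 ± 6.46 in the double knockdown, and it rose by 0.51 ± 0.12 (adjusted p = 0.00257) when HIF1A knockdown was added to FOXA1 knockdown. The IDH1 share of both was 51.4 to 55.2% in control, 66.3 to 71.4% in shFOXA1 and 46.7 to 52.8% in the double knockdown.

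MDH1, the cytosolic malate dehydrogenase of the malate-aspartate shuttle (chromosome 2, 63588609 to 63607197), was 75.2, 50.2 and 49.8 RPKM in control, 25.6, 23.8 and 21.7 in shHIF1A, 45.7, 49.9 and 41.1 in shFOXA1 and 23, 18.8 and 18.5 in the double knockdown. It was 63.1, 51.6 and 72.2 RPKM in control+KC7F2 and 45.1, 40.0 and 47 in shFOXA1+KC7F2. All 6 libraries with the HIF1A shRNA lay below all 12 others. MDH1 fell by 1.26 ± 0.16 with HIF1A knockdown (adjusted p = 9.49e-06), the largest change of any member in that comparison, and fell by 1.16 ± 0.16 (adjusted p = 2.33e-05) within FOXA1 knockdown. MDH2, the mitochondrial form, was 176 ± 36.4 RPKM in control and 131 ± 7.28 in shFOXA1, and it fell by 0.40 ± 0.12 with FOXA1 knockdown (adjusted p = 0.0248), or by 0.24 without control 1 (adjusted p = 0.113), while its change with HIF1A knockdown was -0.15 ± 0.12 (adjusted p = 0.355).

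FH, fumarase (chromosome 1, 241497603 to 241519761), was 62.5, 59.3 and 52.2 RPKM in control, 47.9, 47.4 and 50.7 in shHIF1A, 40.5, 41.3 and 39.5 in shFOXA1 and 43.7, 42.5 and 43.1 in the double knockdown. In the presence of KC7F2 it was 55.5, 55.8 and 57.5 RPKM in control cells and 41.6, 39 and 41.2 in FOXA1 knockdown cells. Every library with the FOXA1 shRNA lay below every library without it, and FH fell by 0.51 ± 0.077 with FOXA1 knockdown (adjusted p = 0.000113). OGDH and DLST, subunits of the oxoglutarate dehydrogenase complex, were lower too. OGDH fell by 0.46 ± 0.10 with FOXA1 knockdown (adjusted p = 0.00419), from 36.8 ± 2.24 to 26.7 ± 0.583 RPKM. With quantile normalisation the OGDH change was -0.31 and did not pass (limma, adjusted p = 0.0956). DLST fell by 0.46 ± 0.11 with FOXA1 knockdown (adjusted p = 0.00745), from 24.2 ± 2.8 to 17.4 ± 0.162 RPKM.

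IDH3A, IDH3B and IDH3G are the subunits of the NAD-linked isocitrate dehydrogenase. IDH3G (chromosome X, 153785766 to 153794523) was 21.3, 24.7 and 20.8 RPKM in control, 38.4, 37.9 and 32 in shHIF1A, 19.7, 20.3 and 20.9 in shFOXA1 and 31.5, 25.1 and 28.3 in the double knockdown. It was 27.7, 28.7 and 23.4 RPKM in control+KC7F2 and 27.1, 22.7 and 21.7 in shFOXA1+KC7F2. IDH3G rose by 0.68 ± 0.12 with HIF1A knockdown (adjusted p = 0.000195) and the catalytic subunit IDH3A rose by 0.47 ± 0.11 with HIF1A knockdown (adjusted p = 0.0021), and the change of IDH3B was 0.068 ± 0.15 (adjusted p = 0.748); the difference between subunits was not tested. Both also rose when HIF1A knockdown was added to FOXA1 knockdown, by 0.46 ± 0.12 and 0.53 ± 0.11. Of the IDH3A exon bases 38.9% overlap genes on the other strand. CS, SUCLG1 and SUCLA2, citrate synthase and subunits of succinyl-CoA ligase, passed in neither single knockdown, with changes from -0.25 to -0.014 for FOXA1 knockdown.

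ME2, the mitochondrial malic enzyme (chromosome 18, 50878734 to 50954257), was 11.8, 13.2 and 12.3 RPKM in control, 7.33, 6.99 and 7.62 in shHIF1A, 8.4, 10.0 and 9.91 in shFOXA1 and 6.97, 6.58 and 5.83 in the double knockdown. With KC7F2 it was 11.8, 11.8 and 11.6 RPKM in control cells and 10.6, 8.73 and 8.76 in FOXA1 knockdown cells. ME2 fell by 0.73 ± 0.098 with HIF1A knockdown (adjusted p = 2.19e-05) and fell by 0.38 ± 0.098 with FOXA1 knockdown (adjusted p = 0.00911). PC, pyruvate carboxylase, was 7.52 ± 1.15 RPKM in control and 10.6 ± 1.39 in shHIF1A, and it rose by 0.47 ± 0.12 with HIF1A knockdown (adjusted p = 0.00506), a call lost when the trend on length and GC content was removed (adjusted p = 0.126).

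The double knockdown against control gave 8 higher and 22 lower members of 42, whereas 22.6% of all tested genes rose and 19.5% fell, with a median of -0.35 for members and 0.029 for all. In glycolysis 10 of 15 fell and only PGK1 rose. PGM1 fell by 1.29 ± 0.14 (adjusted p = 1.6e-06) and PGLS fell by 1.08 ± 0.17 (adjusted p = 0.000107). GBE1 and IDH1 stayed above control, having risen by 0.48 ± 0.14 and 0.43 ± 0.12, although GBE1 did not pass without shFOXA1+shHIF1A 1 (adjusted p = 0.0528), nor either with only the 2 groups fitted (0.0768 and 0.109). ENO2, higher in shFOXA1, was lower than control here, having fallen by 0.32 (adjusted p = 0.0356) with overlapping libraries, and the call was lost without control 1, control 2, shFOXA1+shHIF1A 2 or shFOXA1+shHIF1A 3 (0.0805 to 0.173). The same holds for the fall of DLST (0.0784 to 0.184), and for that of RPIA without control 1, shFOXA1+shHIF1A 2 or shFOXA1+shHIF1A 3 (0.06 to 0.136), with -0.69 moving to -0.42 without control 1. The rise of IDH3G was lost without control 1, control 3, shFOXA1+shHIF1A 1 or shFOXA1+shHIF1A 3 (0.065 to 0.12).

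KC7F2 against control, with a HIF1A inhibitor in place of the HIF1A shRNA, changed few members. HIF1A mRNA was 15.1, 23.2 and 13.5 RPKM in control+KC7F2, and its change did not pass (limma, -0.38 ± 0.23, adjusted p = 0.559). Whether KC7F2 lowered HIF1A activity was not measured here, and its vehicle is not stated. The luminal marker sum was 1410 to 1540 RPKM in control+KC7F2, under the 1610 to 2060 of control, and its part was not tested. PGD and OGDH rose and none of the 42 fell, whereas 1.05% of all tested genes rose and 0.992% fell. At an unadjusted p under 0.05, 9 members were higher and 1 lower, beside 1537 of all 12900 tested genes in both directions together. The 15 glycolysis genes had a median change of 0.13, and none passed. PGD, which makes NADPH in the oxidative branch (chromosome 1, 10398592 to 10420144), was 74.2, 79.4 and 67.3 RPKM in control and 134, 132 and 122 in control+KC7F2, with no overlap. In FOXA1 knockdown cells it was 75.1, 78.4 and 74.9 RPKM without and 138, 125 and 117 with KC7F2, and it was 81.5, 86.6 and 80.1 in shHIF1A and 84.3, 66.8 and 77.5 in the double knockdown. PGD rose by 0.81 ± 0.098 (adjusted p = 0.000224) in control cells and rose by 0.73 ± 0.098 (adjusted p = 0.000324) in FOXA1 knockdown cells. The first call was lost with only the 2 groups fitted (adjusted p = 0.0943) and held without control 1 and control+KC7F2 1 and 3. OGDH rose by 0.45 ± 0.10 (adjusted p = 0.0328), but not without control 1, control 2, control 3, control+KC7F2 1 or control+KC7F2 2 (0.0507 to 0.121).

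KC7F2 added to FOXA1 knockdown raised PGD and lowered PFKP, GYS1 and IDH3A, 1 and 3 of 42, whereas 1.71% of all tested genes rose and 2.37% fell. The split was 2 and 3 under median-ratio scaling and 4 and 4 under quantile normalisation. All 12900 tested genes split 251 and 362, and 325 and 372, at these settings. At an unadjusted p under 0.05, 5 members were higher and 11 lower, beside 2097 of all 12900 tested genes in both directions together. IDH3A fell by 0.58 ± 0.11 (adjusted p = 0.00407), from 17.5, 17 and 21.2 to 12.1, 12.2 and 12.3 RPKM. PFKP fell by 0.49 ± 0.12 (adjusted p = 0.0313) and GYS1 fell by 0.40 ± 0.11 (adjusted p = 0.0482). The PFKP call was lost without any 1 of the 6 libraries other than shFOXA1 1 (adjusted p = 0.0875 to 0.128) and the GYS1 call without any 1 of the 6 (0.0862 to 0.175).

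Under KC7F2 the FOXA1 shRNA raised 8 and lowered 11 of 42 members, whereas 8.88% of all tested genes rose and 24.1% fell. Under median-ratio scaling the median of all tested genes moved from -0.15 to -0.0047 and the members split 12 higher and 7 lower, and under quantile normalisation 17 higher and 2 lower. All 12900 tested genes split 1829 and 1883, and 1712 and 1822, at these settings. HK2, ALDOA, ALDOC, ENO2, GBE1, PYGB, TKT and IDH1 rose, and GBE1 rose by 1.44 ± 0.14 (adjusted p = 7.81e-07) and IDH1 rose by 1.15 ± 0.12 (adjusted p = 2.13e-06). ENO2 rose by 0.98 ± 0.11 (adjusted p = 9.65e-06) and PYGB rose by 0.74 ± 0.11 (adjusted p = 7.76e-05). HK1, PFKM, PGLS, IDH3A, OGDH, DLST, SUCLG1, FH, MDH1, MDH2 and ME2 fell, with MDH2 at -0.65 ± 0.12 (adjusted p = 0.000844). Without control 1 and control+KC7F2 1 and 3, 4 rose and 7 fell, and MDH1 moved to -0.23, PGLS to -0.29, SUCLG1 to -0.33 and TKT to 0.19. Of all 12900 tested genes, 571 rose and 1220 fell without these libraries. ALDOA was lost without any 1 of the 6 libraries (adjusted p = 0.0622 to 0.129) and TKT without any but control+KC7F2 2 (0.0742 to 0.219). ALDOC, PGLS, SUCLG1, MDH1 and ME2 were each lost without control+KC7F2 1 (0.0635 to 0.148), all of these but ME2 without control+KC7F2 3 (0.0691 to 0.165), and each without at least 1 shFOXA1+KC7F2 library (0.0517 to 0.162). The interaction of FOXA1 knockdown with KC7F2 passed for none of the 42 in limma, whereas 0.0155% of all tested genes passed above 0 and 0.062% below. At an unadjusted p under 0.05, 0 members were higher and 9 lower, beside 872 of all 12900 tested genes in both directions together. That no member passed does not show that KC7F2 left the response alike. For ENO2 the interaction with KC7F2 was -0.32 ± 0.16 and that with HIF1A knockdown -1.63 ± 0.16, and the 2 share the control and shFOXA1 libraries.

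Of 55 other genes of these pathways, listed by name, 38 were tested. With FOXA1 knockdown 2 rose and 9 fell, against 9.52% and 14.6% of all tested genes. The 8 of them in glycolysis and gluconeogenesis gave 0 rises and 4 falls, unlike the glycolysis members. With HIF1A knockdown 12 of the 38 rose and 7 fell, shares near the 25.9% and 16.1% of all tested genes. The 17 not tested included the tissue forms HK3, PKLR, PYGM and GYS2. In glycolysis and gluconeogenesis, BPGM, which makes 2,3-bisphosphoglycerate, was 16.1, 14.6 and 13.7 RPKM in control and 34.3, 39.6 and 37.6 in shHIF1A and rose by 1.30 ± 0.13 with HIF1A knockdown (adjusted p = 8.14e-07). PCK2, the mitochondrial PEP carboxykinase, fell by 0.83 ± 0.13 with FOXA1 knockdown (adjusted p = 0.000167) and fell by 0.56 ± 0.13 with HIF1A knockdown (adjusted p = 0.00244). Among glycogen genes, the glycogenin GYG2 was 3.4, 4.32 and 4.34 RPKM in control and 7.46, 8.79 and 8.08 in shHIF1A, and it rose by 0.93 ± 0.14 with HIF1A knockdown (adjusted p = 7.32e-05).

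PHKA1, a regulatory subunit of phosphorylase kinase, rose by 0.66 ± 0.12 with FOXA1 knockdown (adjusted p = 0.000912) and rose by 0.80 ± 0.12 with HIF1A knockdown (adjusted p = 8.08e-05), with an interaction of -0.97 ± 0.17 (adjusted p = 0.00227). Phosphorylase kinase activates glycogen phosphorylase. PRPS1, which turns ribose phosphate into the nucleotide precursor PRPP, was 51.6, 43.3 and 40.3 RPKM in control and 22.1, 17.2 and 20.3 in shFOXA1 and fell by 1.16 ± 0.12 with FOXA1 knockdown (adjusted p = 2.17e-06). SUCLG2, a succinyl-CoA ligase subunit, was 36.6, 32.6 and 27.7 RPKM in control and 14.2, 16.6 and 14 in shHIF1A and fell by 1.08 ± 0.14 with HIF1A knockdown (adjusted p = 1.8e-05).

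KC7F2 raised ME1, which like PGD is a known cytosolic source of NADPH. ME1, the cytosolic malic enzyme, was 33, 28.4 and 27.8 RPKM in control, 52.9, 50.7 and 56.4 in control+KC7F2, 25, 21.4 and 23.3 in shFOXA1 and 50.9, 47.8 and 46.8 in shFOXA1+KC7F2. ME1 rose by 0.83 ± 0.11 (adjusted p = 0.000421) in control cells and rose by 1.05 ± 0.11 (adjusted p = 3.38e-05) in FOXA1 knockdown cells. IDH1, which also makes cytosolic NADPH, changed by 0.31 ± 0.12 and 0.31 ± 0.12 and did not pass.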

How the data were processed

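RNA of 18 LNCaP libraries in 6 groups of 3 was sequenced after preparation with the NEBNext Ultra kit, per the labels' protocols. The authors deposited RPKM values per gene. The submitters' processing notes name STAR and hg38, with no counting program, annotation or strand setting given in the sources used here. Of 26475 lines, 32 without values were left out. Depth came from 2348 genes of up to 200 nt, in which 75 to 85.11% of low values were whole reads within 2%. GENCODE 29 gave positions for hg38.

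Values were tested as log2(RPKM + 0.5) with limma 3.58.1 (R 4.3.3): 1 model over 6 groups, 12 residual degrees of freedom, eBayes with trend, two-sided, 10 contrasts, Benjamini-Hochberg over 12900 genes within each contrast. The code was tested on simulated data. Every member could be named; values of all libraries are given for members with an adjusted p under 0.05 and a log2 change of at least 0.5 in 1 of the first 5 contrasts, up to 8 in glycolysis and 4 in each other group by adjusted p, and of other pathway genes the 2 with the smallest adjusted p per list; some genes are not reported here. Members and lists were chosen with earlier results of these data known. Alternatives were other pseudocounts, filters, scalings and fits and leaving out libraries. Isoenzyme proteins were not compared here.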

Additional observations from a re-analysis of the deposited data

Results flagged for a closer look

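The change with FOXA1 knockdown differed between cells with and without HIF1A knockdown, by the test of the difference itself (limma), in 12 of the 42 tested enzymes, all below 0, against 4.45% of all tested genes below 0 and 3.16% above. In glycolysis the differences were -0.99 for HK2, -0.88 for PFKP, -0.74 for ALDOA, -0.90 for ALDOC, -0.55 for ENO1, -1.63 for ENO2 and -0.58 for PKM, as log2 fold changes. In glycogen metabolism they were -1.39 for GBE1, -0.73 for GYS1, -0.94 for PYGL and -1.04 for PYGB, and in the citrate cycle -1.12 for IDH1. The calls of ALDOA, ENO1 and PKM were lost on leaving out single libraries of shHIF1A, shFOXA1 or shFOXA1+shHIF1A (adjusted p = 0.0503 to 0.0855). With 3 libraries a group, no group was tested for a single far-off sample, and libraries were left out in turn instead. The double knockdown held more FOXA1 mRNA than shFOXA1, and the vector trace differed between groups. A smaller FOXA1 effect, a weaker knockdown and a change of vector therefore cannot be told apart here.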

How the results depend on the processing

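Over 28 alternative settings, 7214 member results were recomputed. Of them 6841 kept their side of the threshold, and those among them that passed kept their direction. Direction was not compared for results that passed in neither fit. Another 237 no longer passed and 132 newly passed in the same direction. A further 4 newly passed with a sign opposite to that in the main fit, where they had not passed. The 4, all for the FOXA1 shRNA under KC7F2 with quantile normalisation, were PFKL at 0.31, TPI1 at 0.29, GAPDH at 0.57 and PGD at 0.35; the cause was not tested. For FOXA1 knockdown, 4 members fell with quantile normalisation, and 8 rose and 3 fell with only the groups compared, which uses fewer samples. For KC7F2 alone, 1 member rose with median-ratio scaling or without control 1 and control+KC7F2 1 and 3, and 0 with only the groups compared. For KC7F2 added to FOXA1 knockdown, 2 rose with median-ratio scaling or without those 3 libraries, 4 with quantile normalisation, and 4 rose and 5 fell with the length and GC trend removed. For the FOXA1 shRNA in HIF1A knockdown cells, 4 rose and 3 fell with quantile normalisation, and 0 fell with only the groups compared. Under KC7F2, 5 rose with no filter, 7 fell with median-ratio scaling, while quantile normalisation gave 17 that rose and 2 that fell, and 4 rose and 7 fell without the 3 libraries. The interaction with HIF1A knockdown was above 0 for 1 member with no filter, and the double knockdown raised 4 with only the groups compared. Counts over all tested genes moved with the settings too. For the FOXA1 shRNA under KC7F2 they went from 1145 higher and 3105 lower to 1712 and 1822 with quantile normalisation.

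With 1 library left out at a time, the counts of members that rose and fell ranged over 13 to 16 and 4 to 9 for FOXA1 knockdown, 8 to 9 and 14 to 18 for HIF1A knockdown, 1 to 2 and 0 for KC7F2, 4 to 5 and 19 for HIF1A knockdown added to FOXA1 knockdown, 1 and 1 to 2 for KC7F2 added to it, 1 to 3 and 0 to 8 for the FOXA1 shRNA in HIF1A knockdown cells, 5 to 7 and 7 to 11 under KC7F2, 6 to 9 and 18 to 25 for the double knockdown, 0 to 1 and 9 to 14 for the interaction with HIF1A knockdown, and 0 for that with KC7F2.

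Groups share replicate numbers, but same-numbered libraries deviated together in only 9 of 45 pairs (r over 0.1, range -0.21 to 0.25). By the same deviations 7 of 18 libraries were closest to their own number. These values show no clear pairing by number, but with 3 libraries a group they cannot exclude it. With the replicate block, 2 members rose with KC7F2 added to FOXA1 knockdown.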
